A study of Caenorhabditis elegans with 2 samples.

Results

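The genes described here encode the machinery that transcribes the nuclear genome of Caenorhabditis elegans, and the question was which of them carried binding of the tagged protein K11D2.4 at their promoters. Members were taken by gene symbol: RNA polymerase subunits (rpb, rpc, rpoa and rpac genes and ama-1), TFIID (taf genes and tbp-1), Mediator (mdt genes and cdk-8), other initiation factors (gtf genes, ttb-1 and cdk-7) and elongation factors (spt genes, cdk-9, cit-1.1 and cit-1.2). The rule found 79 of 19973 protein-coding genes, made up of 22 RNA polymerase, 18 TFIID, 21 Mediator, 12 other initiation and 6 elongation factor genes. The data were peak lists from chromatin immunoprecipitation followed by sequencing (ChIP-seq) with an antibody against GFP. All animals were whole young adults of strain RW12320, aged 62 hours and synchronised as starved L1 larvae after bleaching, in which K11D2.4 carried a TY1, EGFP and 3xFLAG tag inserted by CRISPR at its own locus. There was 1 group of 2 biological replicates and no untagged or input control was analysed here. Whole animals mix every tissue, so strong binding in few cells and weak binding in many cannot be told apart.

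As background, RNA polymerase II makes messenger RNA, RNA polymerase I makes the large ribosomal RNA precursor, and RNA polymerase III makes transfer RNA and other short RNAs. TFIID, which contains the TATA-box-binding protein and its associated factors (TAFs), recognises the core promoter; TFIIA, TFIIB, TFIIE, TFIIF and TFIIH complete the assembly. Mediator passes signals from DNA-bound regulators to polymerase II, and P-TEFb, SPT4, SPT5 and FACT then help the enzyme through early elongation and through nucleosomes. RefSeq names the product of K11D2.4 a C2H2-type zinc finger domain protein.

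A promoter summit was the highest point of a peak lying between 1000 bp upstream and 200 bp downstream of any transcript start of the gene, and the gene took the highest signal among its summits. The main list was the authors' pooled list named conservative, cut at a threshold of the irreproducible discovery rate, which scores how well the ranks of peaks repeat between replicates. Of the 79 genes, 10 (12.7%) had a promoter summit among its 1927 peaks, against 1154 of 19973 protein-coding genes (5.78%). These 10 were the polymerase genes rpb-11, rpac-19 and rpc-2, the Mediator genes mdt-26, mdt-6 and mdt-22, the TFIID genes taf-4 and taf-12, the TFIIH kinase gene cdk-7 and the P-TEFb kinase gene cdk-9. Their signal ran from 55.4 to 247 with a median of 130, against a median of 116 over all genes with a main promoter summit. The other 69 genes had none. Signal is the authors' own peak value of unstated scale, and genes are ranked only within a list. Replicate signals and their log2 ratios are set side by side as deposited, with no adjustment for scale. A difference between replicates at a gene can therefore also reflect scale or depth, which was not tested. Without read numbers, sequencing depth is unknown for both replicates.

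The sequence under 5 of these summits is shown because it lies at the highest point of the pulled-down DNA at these genes and because the windows differ in base composition and in short words. Each run is the summit base with 50 bases on either side, on the strand of the named gene, from the RefSeq genome of build WBcel235 (ce11). The rpb-11 window is chrII:14059941-14060041 (plus strand), the mdt-26 window chrII:5661200-5661300 (plus), the mdt-22 window chrII:10301097-10301197 (plus), the taf-12 window chrIII:11870162-11870262 (minus) and the rpac-19 window chrIII:9629946-9630046 (minus). Capitals mark the word ACGCAG, its overlapping neighbour CGCAGA, or the further word TTGCGC, on either strand; the printed CTGCGT is the reverse complement of the word named before the others.
rpb-11: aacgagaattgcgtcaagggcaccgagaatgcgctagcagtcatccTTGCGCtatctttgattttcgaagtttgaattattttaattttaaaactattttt
mdt-26: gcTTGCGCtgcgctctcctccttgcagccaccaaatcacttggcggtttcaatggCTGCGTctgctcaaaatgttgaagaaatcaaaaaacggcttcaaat
mdt-22: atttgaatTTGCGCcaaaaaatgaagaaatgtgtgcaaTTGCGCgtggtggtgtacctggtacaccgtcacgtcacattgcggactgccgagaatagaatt
taf-12: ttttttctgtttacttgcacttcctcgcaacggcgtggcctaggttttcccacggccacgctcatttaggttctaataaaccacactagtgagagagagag
rpac-19: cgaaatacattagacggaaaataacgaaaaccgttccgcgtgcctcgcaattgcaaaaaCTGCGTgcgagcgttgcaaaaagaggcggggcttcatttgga
The rpb-11 window held TTGCGC once and the mdt-22 window held it at 2 places. The mdt-26 window held TTGCGC near its 5′ end and ACGCAG on the opposite strand, the rpac-19 window held only the latter, and the taf-12 window held none of the 3 words. Of the windows not shown, those of cdk-9, taf-4 and rpc-2 held none of the words. That of mdt-6 held TTGCGC, and that of cdk-7 held ACGCAG and CGCAGA.

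The word ACGCAG and the word CGCAGA overlap each other by 5 bases and came from earlier results on these peaks, whereas TTGCGC was picked after the member sequences had been read. Among the 11 main summits in members' promoters, ACGCAG lay within 50 bp of 3 (mdt-26, cdk-7 and rpac-19), CGCAGA of 1 (cdk-7) and TTGCGC of 4 (rpb-11, mdt-26, mdt-6 and mdt-22). Among all 1927 main peaks, windows of the same length held these words in 14.1%, 13.2% and 8.20% respectively. In flanks of the same length centred 250 bp to either side, the shares were 2.88%, 2.54% and 2.26%. Since ACGCAG and CGCAGA came from these same peaks, their higher share at summits than in flanks is no independent support. Because TTGCGC was picked from these sequences, its member share is raised by that choice and no comparison is drawn from it. Without it, 3 of the 11 member windows held a word. The GC content of the member windows had a median of 47.5%, against 48.5% over the main list. It ran from 35.6% at rpb-11, which had the highest promoter signal, to 55.4% at taf-4. A word is a match of letters and was not tested as a binding site.

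**Figure D1:**
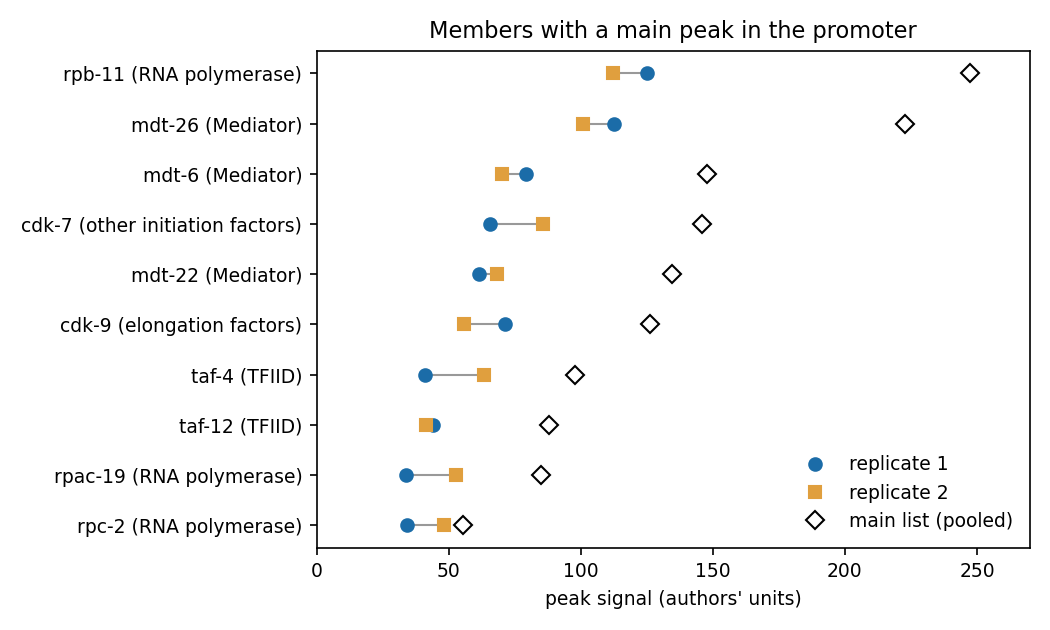
Peak signal (horizontal axis, authors' units) for the 10 genes with a main promoter peak; circles are replicate 1, squares replicate 2 (the overlapping peak of each replicate's ranked list) and open diamonds the pooled main list. Replicates 1 and 2 had 125 and 112 at rpb-11, highest in the pooled list, and 34.2 and 48.3 at rpc-2, lowest there. Replicate 1 was the higher at 5 genes and replicate 2 at the other 5. The main list was chosen for ranks that repeat between replicates, so agreement here is partly selected.

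Among RNA polymerase genes, 3 of 22 (13.6%) had a main promoter summit, against 5.78% of all protein-coding genes. The strongest was at rpb-11, which encodes a small polymerase II subunit that pairs with RPB3 in the assembly core. Its peak (chrII:14059907-14060050, build ce11) had a signal of 247, rank 157 of 1927, with the summit 94 bp upstream of the start and between protein-coding genes. In the replicates' ranked lists the same site had signals of 125 and 112, at percentiles 98.4 and 98.0 of all protein-coding genes with a ranked promoter summit. The summit also fell in the promoter of W01G7.4, 748 bp upstream of that gene, which follows rpb-11 on the same strand and whose product RefSeq names a putative RNA polymerase II nuclear localization protein. The partner gene rpb-3 had no promoter summit in any list used.

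The counterpart of RPB11 in polymerases I and III is encoded by rpac-19, which also had a main peak (chrIII:9629834-9630157), of signal 84.8 and rank 1308. Its summit lay 111 bp upstream of the start, with ranked signals of 33.8 in replicate 1 and 52.8 in replicate 2. It lay as well 842 bp upstream of tbg-1, the gamma-tubulin gene, which follows on the same strand. The partner subunit gene rpac-40 had a ranked summit in replicate 2 only, with signal 16.2. That summit lay at -977 bp (minus is upstream), past the near end of algn-5, 86 bp away. The third polymerase gene, rpc-2, encodes the second largest subunit of polymerase III. Its peak (chrIII:5557394-5557717) was the weakest of the 10, with signal 55.4 and rank 1752, and its summit lay in a coding exon 191 bp downstream of the start. The overlapping replicate summits lay 102 bp downstream in replicate 1, with signal 34.2, and 251 bp downstream in replicate 2, with signal 48.3. The latter is outside the promoter window, and the peak was in neither replicate's own thresholded list.

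By symbol, 1 of 12 rpb and ama-1 genes (polymerase II) and 1 of 4 rpc genes (polymerase III) had a main promoter summit. So did 0 of 4 rpoa genes (polymerase I) and 1 of 2 rpac genes (polymerases I and III). The 12 are not all particular to polymerase II. RefSeq names the products of rpb-5, rpb-6, rpb-8, rpb-10 and rpb-12 subunits of polymerases I, II and III. None of these genes had a main promoter summit. Over all protein-coding genes the share was 5.78%, and no count in sets this small was tested against it. The genes of the large catalytic subunits varied, and over all protein-coding genes 45.1% had a ranked promoter summit in replicate 1 and 46.4% in replicate 2. The genes ama-1, for the largest subunit of polymerase II, and rpc-1, for that of polymerase III, had no promoter summit in the ranked lists, which hold 41734 and 42705 peaks in replicates 1 and 2 and reach far below the thresholds. The gene for the second largest subunit of polymerase II, rpb-2, had a ranked summit in replicate 1 only, with signal 11.1. For polymerase I, rpoa-2 had none, and rpoa-1 had promoter signals of 22.1 in replicate 1 and 34.4 in replicate 2. Both rpoa-1 summits (at 13679037 in replicate 1 and 13678952 in replicate 2) lay inside the annotated gene (chrII:13670626-13694795, minus strand). They counted only through an internal transcript start of rpoa-1, not through the start at its 5′ end. A main peak of signal 70.3 lay in an rpoa-1 intron, 4669 bp downstream of the nearest start and so outside its promoter.

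One polymerase gene without a main peak came close. The gene rpb-7, for a subunit that forms the stalk of polymerase II with RPB4, was in replicate 1's own thresholded list with signal 79.6 and in the second pooled list with signal 108. Its ranked signals were 79.6 in replicate 1 and 28.8 in replicate 2, a log2 ratio of 1.46, so replicate 1 was the higher. Its stalk partner rpb-4 had a summit in replicate 1 only, with signal 14.1. At the low end, rpc-25, for a stalk subunit of polymerase III, had ranked signals of 14.2 and 15.6 from summits 876 bp apart, and the lowest mean percentile (17.7) of the 33 members present in both ranked lists.

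Among Mediator genes, 3 of 21 (14.3%) had a main promoter summit, against 5.78% of all protein-coding genes. All 3 were also in both replicates' own thresholded lists. Membership goes by symbol: the RefSeq products of mdt-9 (guanine nucleotide exchange factor MSS4), mdt-28 (a coiled-coil domain protein), mdt-30 (a glutamine/asparagine-rich protein) and mdt-26 do not name Mediator. The strongest was mdt-26; RefSeq gives its product a TFIIS N-terminal domain, as mammalian MED26 has. Its peak (chrII:5661170-5661403) had signal 223 and rank 193, with the summit in a coding exon 56 bp downstream of the start, and the ranked signals were 113 in replicate 1 and 100.6 in replicate 2. A second main peak of mdt-26 was higher still, with signal 296 and rank 118. It lay in an intron 663 bp downstream of the start, outside the promoter window, so it did not enter the counts. The gene ift-43, which reads away from mdt-26, had its start 464 bp from the promoter summit.

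Both other Mediator peaks lay nearer to another gene than to the Mediator gene, so the counts of Mediator genes rest partly on how a peak is assigned. The mdt-6 peak (chrV:7060374-7060697) had signal 148 and rank 457, with ranked signals of 79.0 and 70.0. Its summit lay 912 bp upstream of mdt-6 but 6 bp downstream of a start of Y57E12AL.1, for a serine incorporator, and 66 bp upstream of Y57E12AL.6, whose end is 39 bp from mdt-6 on the same strand. MDT-6 is a head module subunit, as in yeast, and the head module contacts the polymerase. The mdt-22 peak (chrII:10300985-10301308) had signal 135 and rank 546, with ranked signals of 61.5 and 68.4. Its summit lay 69 bp upstream of mdt-22 and 67 bp from a start of clpp-1, for a mitochondrial protease, on the opposite strand, and within an intron of longer clpp-1 transcripts. MDT-22 too is a head subunit in yeast. A second main summit in the mdt-22 promoter had signal 79.2 and rank 1464, lay 686 bp upstream, and was nearer to nep-26.

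Of the other 18 Mediator genes, mdt-8, for a further head subunit, came closest. It was in replicate 2's own list with signal 45.2 and had a ranked signal of 27.9 in replicate 1, but the replicate summits lay 816 bp apart and so marked different places. Elsewhere in the complex, mdt-15, a coactivator of fat metabolism genes in C. elegans, had a ranked summit in replicate 1 only, with signal 19.6. The kinase module gene cdk-8 had signals of 12.1 and 22.5 from summits 621 bp apart, the latter from a summit that also counted for tlf-1, the gene of the TBP-like factor, with which cdk-8 lies head to head. The lowest Mediator gene present in both lists was mdt-20, with signals of 19.4 and 11.1 from summits 3533 bp apart and a mean percentile of 21.1. Mediator genes with no ranked summit in either replicate were mdt-19, mdt-21, mdt-30 and mdt-31.

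**Figure D2:**
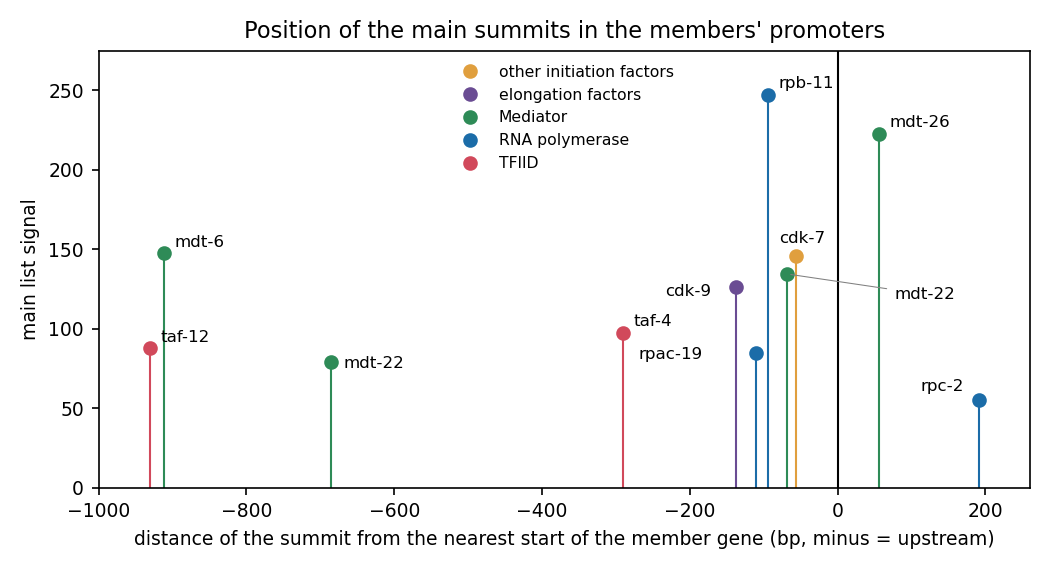
Main list signal (vertical axis, authors' units) of the 11 main summits against their distance from the nearest start of the member gene (horizontal axis, bp, minus is upstream, vertical line at the start); colours are complexes. Of the 10 highest summits, 6 lie within 300 bp upstream of the start, and those of mdt-6 and taf-12 lie 912 and 931 bp away.

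Among TFIID genes, 2 of 18 (11.1%, against 5.78% of all protein-coding genes) had a main promoter summit, taf-4 and taf-12. Their products pair through histone folds in TFIID, and TAF-4 is needed for most early embryonic transcription in C. elegans. The taf-4 peak (chrI:382374-382697) had signal 97.7 and rank 1022, with its summit 290 bp upstream of the start and 634 bp from that of pqn-59 on the opposite strand. Its ranked signals were 40.8 in replicate 1 and 63.3 in replicate 2, and of the replicates' own thresholded lists only that of replicate 2 held it. The taf-12 peak (chrIII:11870050-11870373) had signal 88.1 and rank 1218. Its replicate values were close, 44.1 and 41.4, yet it was in neither replicate's own list. Its summit lay 931 bp upstream of taf-12 and in no other protein-coding gene's promoter. Both TFIID peaks lay below the main list's median signal of 100.6, which 6 of the 10 members exceeded.

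The rest of TFIID was lower. The gene of the TATA-box-binding protein, tbp-1, had a ranked summit in replicate 1 only, with signal 17.3, and the largest subunit gene, taf-1, had none. The tbp-1 summit lay at -808 bp (minus is upstream), past the near end of T20B12.3, 128 bp away. Where a TAF has several genes, the copies differed in some cases only. For TAF11, taf-11.2 had ranked signals of 25.0 and 20.8 and taf-11.3 of 30.4 and 20.2 (summits 823 bp apart), whereas taf-11.1 had no summit. For TAF6, taf-6.1 had signals of 20.1 and 19.1 (summits 858 bp apart), and taf-6.2 had 22.9 in replicate 2 only. Neither taf-7.1 nor taf-7.2 had a summit. The gene taf-10 had the widest gap between replicates among the 33 members present in both ranked lists, with signals of 13.5 and 38.1, a log2 ratio of -1.49.

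Among the other initiation factors, 1 of 12 genes (8.33%, against 5.78% of all protein-coding genes) had a main promoter summit. It was cdk-7, whose kinase is part of TFIIH and phosphorylates the tail of polymerase II at initiation. The peak (chrI:2291100-2291423) had signal 146 and rank 469. Its summit lay 57 bp upstream of the start, between protein-coding genes and in no other protein-coding gene's promoter. Its ranked signals were 65.6 in replicate 1 and 85.6 in replicate 2, and both replicates' own lists held it, although the second pooled list did not. None of the 10 gtf genes had a main summit, a set too small to set apart from the share over all genes. Among them gtf-2H5, for a small TFIIH subunit, had signals of 23.2 and 25.5 from summits 875 bp apart, while gtf-2E2, for the beta subunit of TFIIE, had 14.1 and 16.2 from summits 519 bp apart. The genes gtf-2E1, gtf-2F1, gtf-2F2 and gtf-2H3 had no ranked summit. The TFIIB gene ttb-1 was the third highest member without a main peak, with signals of 30.9 and 30.4 from summits 75 bp apart, at a mean percentile of 76.7.

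Among the elongation factors, 1 of 6 genes (16.7%, against 5.78% of all protein-coding genes) had a main promoter summit. It was cdk-9, the P-TEFb kinase that releases paused polymerase. The peak (chrI:11323228-11323551) had signal 126 and rank 626, with the summit 137 bp upstream of cdk-9 and 280 bp from the start of hxk-2, a hexokinase gene on the opposite strand. Its ranked signals were 71.1 in replicate 1 and 55.9 in replicate 2, and both replicates' own lists held it. The cyclin partners of CDK-9 are encoded by cit-1.1 and cit-1.2, which lie head to head 951 bp apart and shared a single ranked summit of replicate 2, with signal 16.1. Of the others, spt-5 had a summit in replicate 2 only, with signal 20.9. That summit lay at -998 bp (minus is upstream), past the near end of bre-5, which is 276 bp away. Its partner spt-4 had signals of 19.7 and 15.6 from summits 1049 bp apart. The replicate 1 summit of spt-4 lay at -994 bp, past the near end of attf-3, 98 bp away. The gene spt-16, for a FACT subunit, had 28.5 in replicate 1 only. No cyclin or SPT gene had a summit in any thresholded list.

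Set side by side, the complexes had main promoter summits in 8.33% to 16.7% of their genes, each from 1 to 3 genes. With 1 group and so few genes no difference between complexes was tested. In replicate 1's own thresholded list 7 of 79 genes (8.86%) had a promoter summit, against 3.39% of all protein-coding genes: 2 polymerase, 0 TFIID, 3 Mediator, 1 other initiation and 1 elongation factor gene. In replicate 2's own list the count was 9 of 79 (11.4%), against 4.08%, with 2, 1, 4, 1 and 1 genes in the same order. The second pooled list gave 9 genes (11.4%), against 5.97%, losing cdk-7 and rpc-2 and gaining rpb-7. Main peaks found in both replicates' own lists gave 6 genes (7.59%), against 2.64%: rpb-11, mdt-26, mdt-6, mdt-22, cdk-7 and cdk-9. The 50% of main peaks with the highest signal gave the same count of 6, against 3.65%. The members' share was thus above that of all genes under each of these lists, while no TFIID gene was left under the last pair of rules.

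**Figure D3:**
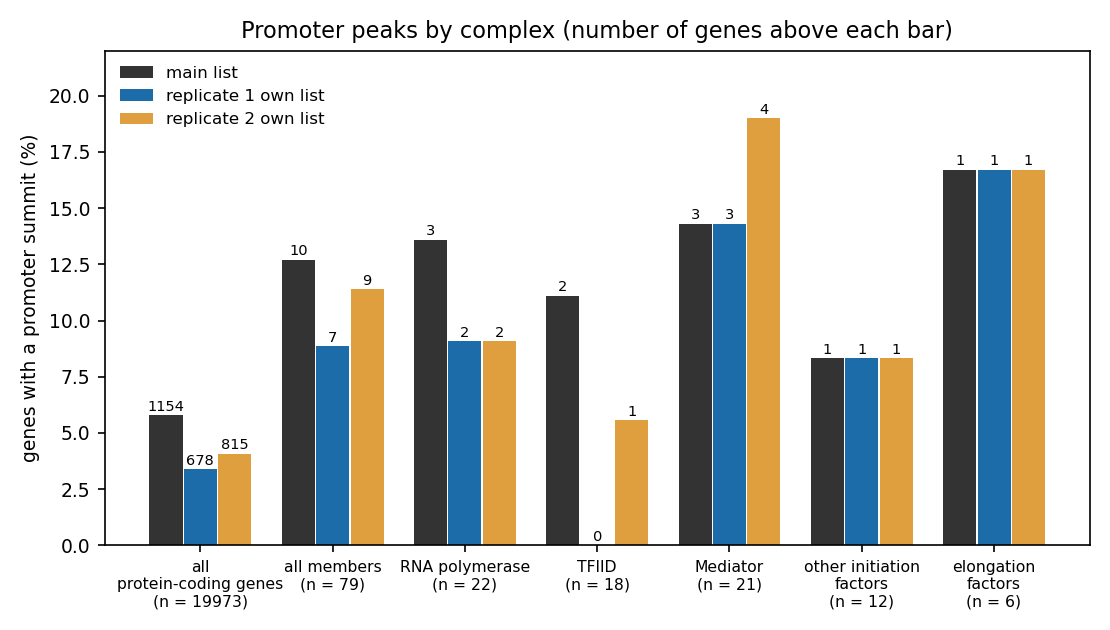
Percentage of genes with a promoter summit (vertical axis) in the main list and in each replicate's own thresholded list, for all protein-coding genes, all members and each complex; the number of genes stands above each bar. All members reach 12.7% in the main list against 5.78% for all genes, and each complex bar rests on at most 4 genes.

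The count also depended on the promoter definition. A window from 500 bp upstream to 100 bp downstream gave 7 genes (8.86%), against 4.34% of all genes, losing mdt-6, taf-12 and rpc-2. Counting each summit only for the gene with the nearest start gave 8 (10.1%), against 4.41%, losing mdt-6 and mdt-22. Of the 10 summits, 7 also lay in another protein-coding gene's promoter and 3 did not, those of cdk-7, rpc-2 and taf-12. Members were packed closely: for 31 of 79 (39.2%) the nearest non-overlapping protein-coding gene upstream was on the same strand and ended within 500 bp, against 18.1% of all genes. Of these 31, 3 had a main peak (9.68%, against 4.32% of all genes so placed), namely mdt-6, rpac-19 and rpc-2. Another 31 members had their upstream neighbour head to head at any distance, and 6 of them had a main peak (19.4%, against 7.96%). The neighbour's start was from 395 bp away at mdt-26 to 7781 bp away at rpb-11, so head to head does not here always mean a shared promoter. Of the 17 with a same-strand neighbour ending farther than 500 bp upstream, 1 had a main peak (5.88%, against 3.79%), taf-12. Starts are those of annotated transcripts. Whether transcription begins at each of them, also close behind a same-strand neighbour, was not tested.

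Below the thresholds, the ranked lists covered many promoters of all kinds. In replicate 1, 44 of 79 genes (55.7%) had a ranked promoter summit, against 45.1% of all protein-coding genes, and in replicate 2 46 (58.2%), against 46.4%. The median signal of the genes that had one was 23.5 in replicate 1 and 20.9 in replicate 2, against 22.5 and 21.2 over all genes, so the members' median was above that of all genes in replicate 1 and below it in replicate 2. Over both replicates, 33 members (41.8%) had a summit in both lists, 24 in 1 and 22 (27.8%) in neither. Over all genes 30.5% had both and 39.0% neither. A ranked summit counted for a member can lie past the near end of its upstream neighbour, as at spt-5, rpac-40 and tbp-1.

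**Figure D4:**
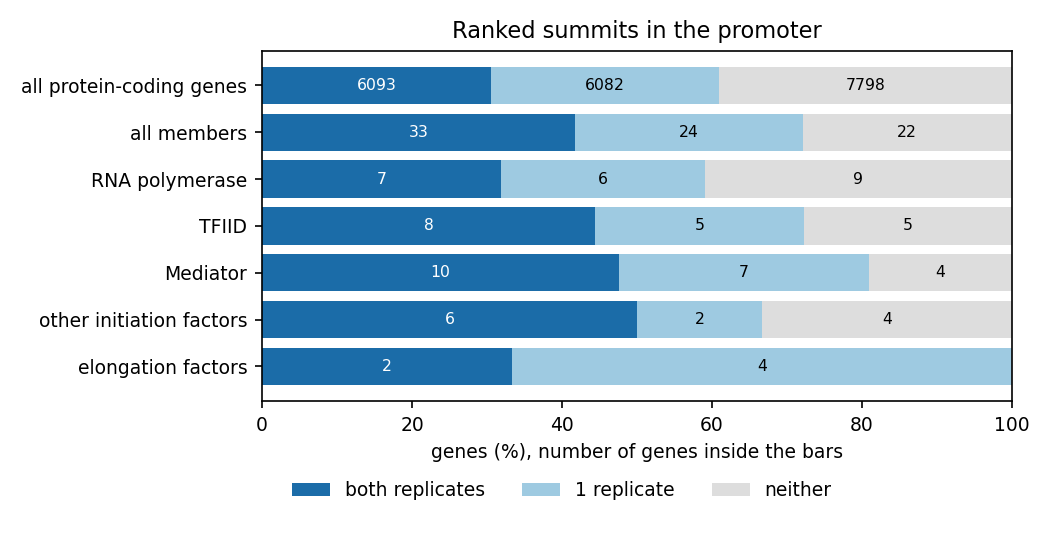
Percentage of genes (horizontal axis) with a ranked promoter summit in both replicates, in 1 or in neither, for all protein-coding genes, all members and each complex, with the number of genes inside the bars. Mediator has 4 of 21 genes in neither list and RNA polymerase 9 of 22, beside 7798 of 19973 for all genes.

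The share of genes without any ranked summit ran from 0 of 6 to 9 of 22 over the complexes. Mediator lacked one in both replicates at 4 of 21 genes, TFIID at 5 of 18, the other initiation factors at 4 of 12, the elongation factors at 0 of 6 and RNA polymerase at 9 of 22 (40.9%), near the 39.0% of all protein-coding genes. The polymerase genes in neither list were ama-1, rpb-3, rpb-5, rpb-6, rpb-9, rpc-1, rpc-11, rpoa-2 and rpoa-49. The median ranked signal of the polymerase genes was 27.6 in replicate 1 (11 genes) and 20.8 in replicate 2 (9 genes). That of TFIID was 24.1 (10 genes) and 22.9 (11 genes), and that of Mediator 23.6 (12 genes) and 21.7 (15 genes). The other initiation factors had medians of 19.7 (8 genes) and 22.7 (6 genes), and the elongation factors 28.5 (3 genes) and 16.1 (5 genes). That last median is the signal of the summit shared by cit-1.1 and cit-1.2, which was counted for both genes. The order of the complexes differed between replicates: the elongation factors were highest in replicate 1 and lowest in replicate 2. TFIID was highest in replicate 2 and below polymerase in replicate 1.

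The spread between replicates was of similar size at members and elsewhere. Over the 33 members present in both ranked lists, the log2 ratio of replicate 1 to replicate 2 had an SD of 0.58, against 0.60 over the 6093 protein-coding genes present in both. The replicate summits lay within 100 bp of each other at 20 of 33 (60.6%), against 50.9%. At the remaining genes the ratio sets summits at different places side by side. Where the summits lay within 100 bp, the median absolute log2 ratio was 0.306 at members and 0.362 over all protein-coding genes. The ratio exceeded 1 on the log2 scale, in either direction, at 2 members, rpb-7 and taf-10, and at 9.54% of all such genes. For the replicate peaks overlapping the highest main promoter peak of the 10 genes the log2 ratio ran from -0.64 at rpac-19 to 0.35 at cdk-9, and for the second mdt-22 peak, with signals of 52.7 and 35.1, it was 0.59.

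**Figure D5:**
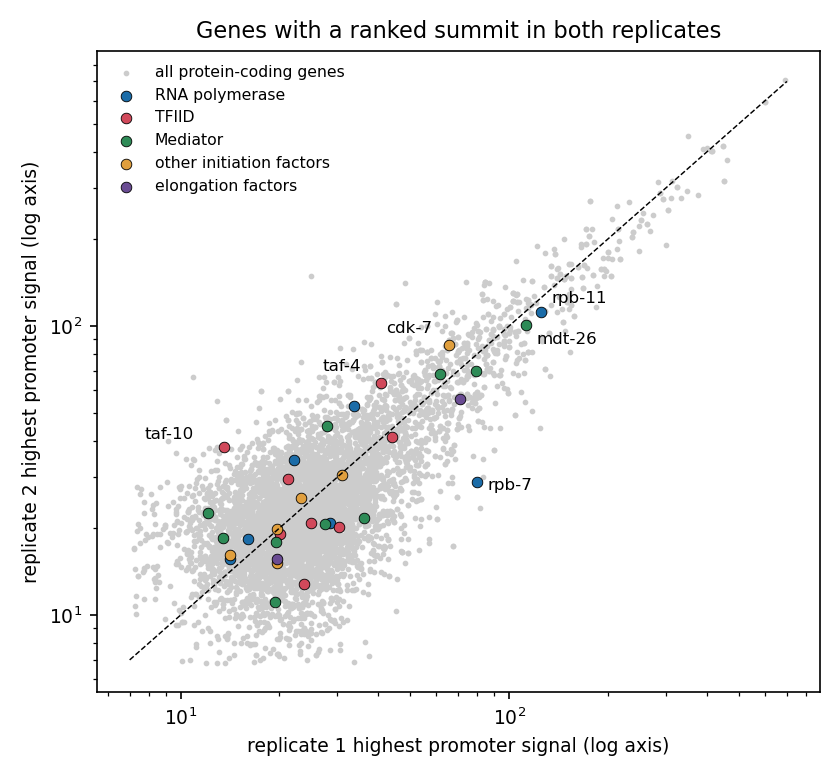
Highest promoter signal in replicate 1 (horizontal, log axis) against replicate 2 (vertical, log axis) for genes with a ranked summit in both; grey points are all 6093 such protein-coding genes, coloured points the 33 members by complex and the dashed line equality. Most members lie within the grey cloud, rpb-11 and mdt-26 lie high near the line, and rpb-7 and taf-10 lie off it on opposite sides.

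Related transcription genes under other names, from a list of 43 of which 40 matched the annotation, had a main promoter summit at 5 (12.5%, against 5.78% of all protein-coding genes). In each replicate's own thresholded list the count was 2 (5%), against 3.39% of all protein-coding genes in replicate 1 and 4.08% in replicate 2. The highest was ints-4, for a subunit of the Integrator complex that cleaves nascent RNA, with signal 409 and rank 65, above all 79 members. Its ranked signals were 179 in replicate 1 and 216 in replicate 2. Of the 11 Integrator genes it was the only 1 with a main summit. For the PAF1 elongation complex, pafo-1 had a signal of 173 with ranked signals of 106 and 76.5, the only 1 of 8 genes of SPT6, FACT and PAF1. For Mediator subunits under other names, dpy-22, the MED12 gene, had a signal of 99.95, and let-19, rgr-1 and cic-1 had no main summit. The polymerase tail phosphatase gene ssup-72 had a signal of 84.1, 1 of 4 such kinase and phosphatase genes, and snpc-3.4, for a subunit of the factor that serves small nuclear RNA genes, had 91.1, 1 of 9 genes of its group. No gene of the 4 other TFIIH subunits had a main summit, so cdk-7 was alone there among these and the 5 gtf-2H genes.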

How the data were processed

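Peak lists of build ce11 were used as deposited by the authors: the pooled list named conservative, a second pooled thresholded list, and a ranked and a thresholded list for each of the 2 biological replicates, per the labels and deposited notes. Peak heights are the values of the deposited signal column. Not given in the sources used here are the aligner, the peak caller and how the authors scaled the signal. Summits were placed against the 19973 protein-coding genes of Ensembl release 115 (WBcel235, the ce11 assembly), and sequences and products came from RefSeq. Members and lists were chosen with earlier results of these data known. The genes named are those with a main promoter summit, the 3 highest without one, the 3 with the lowest mean percentile, the highest of each complex, related genes with a main summit and genes whose start is nearer to a named summit; further genes were named by role. With 1 group no test between groups was made, and counts are set beside all protein-coding genes. The counting was tested on simulated data. Python 3.11.15, numpy 2.4.6 and matplotlib 3.10.9 were used.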

Additional observations from a re-analysis of the deposited data

How the results depend on the processing

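With the 50% of main peaks of highest signal, or the main peaks found in both replicates' own lists (chosen after seeing the data), fewer peaks count: 6 and 6 members, 1 and 1 polymerase, 0 and 0 TFIID and 2 and 2 related genes had a summit, against 10, 3, 2 and 5 in the main list. Without 1 replicate, TFIID had 0 to 1 genes and the related genes 2 to 2. The narrower promoter left 1 TFIID gene, the nearest-start rule 1 Mediator gene and the second pooled list 0 other initiation factor genes. The other 34 alternative counts stayed within 1.5 times. Median ranked signals moved by more than the replicate SD as follows, replicate 1 before replicate 2 where both did. Counting genes with no ranked summit as 0 gave 13.4 and 15.1 over the members, 5.53 and 0 for RNA polymerase, 15.4 and 16.0 for TFIID, 12.1 and 17.8 for Mediator, 16.6 and 7.55 for the other initiation factors and, in replicate 1, 9.84 for the elongation factors. The narrower promoter gave 21.9 and 21.9 for TFIID, 19.6 and 16.7 for Mediator, 49.8 in replicate 1 for the elongation factors (2 genes) and 16.2 in replicate 2 for the other initiation factors. The nearest-start rule gave 22.4 and 21.9 for TFIID, 19.5 and 17.8 for Mediator and 21.6 in replicate 1 over the members. These alternatives change which summits count. No paired analysis was possible because there is 1 group. Depth is unknown and no untagged library was analysed here, so no signal was set against a control.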
